A study of Rattus norvegicus with 24 samples.

Results

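Of the 24 frontal cortex libraries of a rat inhalation study, 7 carried strong coverage of mitochondrial tRNA genes on the minus strand, and these are the subject here. They were chosen by a measured value: for each library, the Coverage (the mean number of reads over each base of a gene, as StringTie reports it) was summed over the 8 minus-strand mitochondrial entries shorter than 100 bases, and libraries with a sum above 5000 were taken. Library 56 of the Control group and libraries 57 to 62 of the Low group met this rule, and the other 17 did not (Control 49 to 55, Low 63 and 64, and all 8 High libraries, 65 to 72). Because the sums chose the libraries, they are given as a description with no test, and so is each difference between the 7 libraries and the others.

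The study exposed adult male Sprague-Dawley rats to an inhaled tungsten aerosol and sampled the frontal cortex the day after, to ask whether the particles leave a trace in the brain transcriptome. Control rats received 0 mg/m3, Low rats 5 mg/m3 and High rats 80 mg/m3, with 8 animals per group and 1 library from each. Polyadenylated RNA was converted to libraries with a stranded kit, which keeps track of the strand an RNA was copied from, and was sequenced on a NovaSeq instrument. The labels name no preparation or sequencing batch. Every sample title, in all 3 groups, carries the word Repeat, and the titles do not say what was repeated. The library numbers 56 to 62 are consecutive, and a difference of the 7 libraries in handling cannot be told apart from a difference in the animals.

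Mitochondrial DNA is a small circle that is transcribed along nearly its whole length from both strands. The long transcript of the plus strand, as the tables orient it, yields both ribosomal RNAs and all but 1 of the protein mRNAs, while that of the minus strand yields Mt-nd6, a subunit of complex I, and a set of tRNAs. The tRNAs lie between the other genes and are cut out by nucleases, which frees the mRNAs and rRNAs on either side, so a tRNA position on 1 strand is often facing an mRNA precursor or a non-coding stretch on the other. Mature tRNAs carry no poly(A) tail and are too short for a standard mRNA library. Coverage at a tRNA, microRNA or snoRNA gene in such a library is therefore not read here as a level of the mature small RNA, and which RNA the reads came from was not tested.

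The microRNA genes below are examples of named genes with lower and with higher coverage in the 7 libraries. The gains at Mir3074 and Mir3597-2 lie at hairpins that RefSeq places exactly across another microRNA on the other strand, so the sequences of these pairs are shown. Each pair is printed 5′ to 3′ as RefSeq gives it (build GRCr8), with the stretch that both strands share in capitals: 68 bases for Mir3074 (chr17:1818648-1818764, plus strand) and Mir24-1 (chr17:1818669-1818736, minus strand), and 87 bases for Mir3597-2 (chr2:15933279-15933396, minus strand) and Mir9-2 (chr2:15933292-15933378, plus strand).
Mir24-1: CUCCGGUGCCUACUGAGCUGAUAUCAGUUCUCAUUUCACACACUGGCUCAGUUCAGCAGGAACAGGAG
Mir3074: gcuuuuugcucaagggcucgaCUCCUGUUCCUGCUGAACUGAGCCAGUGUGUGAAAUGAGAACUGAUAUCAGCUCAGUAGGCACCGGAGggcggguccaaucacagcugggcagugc
Mir9-2: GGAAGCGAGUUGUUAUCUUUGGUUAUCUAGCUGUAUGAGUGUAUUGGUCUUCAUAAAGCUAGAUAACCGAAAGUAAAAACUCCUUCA
Mir3597-2: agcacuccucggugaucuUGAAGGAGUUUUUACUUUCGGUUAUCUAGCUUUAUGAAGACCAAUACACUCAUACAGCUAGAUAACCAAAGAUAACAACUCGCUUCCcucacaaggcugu

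For the microRNA genes that lost coverage, and for Mir3556b with its partner Mir29c, the mature sequence is printed with its seed (bases 2 to 8) in capitals. The mature sequence of Mir3556b lies across that of Mir29c on the other strand of chromosome 13.
rno-miR-770-5p: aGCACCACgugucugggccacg
rno-miR-186-5p: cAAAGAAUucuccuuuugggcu
rno-miR-23b-3p: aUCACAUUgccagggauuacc
rno-miR-27b-3p: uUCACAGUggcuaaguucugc
rno-miR-29c-3p: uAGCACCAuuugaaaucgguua
rno-miR-3556b: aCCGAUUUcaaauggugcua
No 2 of these 6 mature sequences share a seed.

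Coverage of the minus-strand tRNA entries separated the libraries by a wide margin. The summed Coverage was 13293 in library 56, and 14064, 10037, 11180, 19517, 12347 and 11549 in libraries 57 to 62. In Control libraries 49 to 55 it lay between 155 and 332 with a median of 179, in libraries 63 and 64 it was 194 and 187, and in the High libraries it lay between 204 and 362 with a median of 270. The lowest library inside the threshold was thus library 58 at 10037 and the highest outside it was library 66 at 362. As a share of all reference coverage, which removes differences in depth, the same entries took 6991 per 1000000 in library 56 and 5449 to 8102 in libraries 57 to 62. They took 84.9 to 155 per 1000000 in the other 17 libraries.

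**Figure D1:**
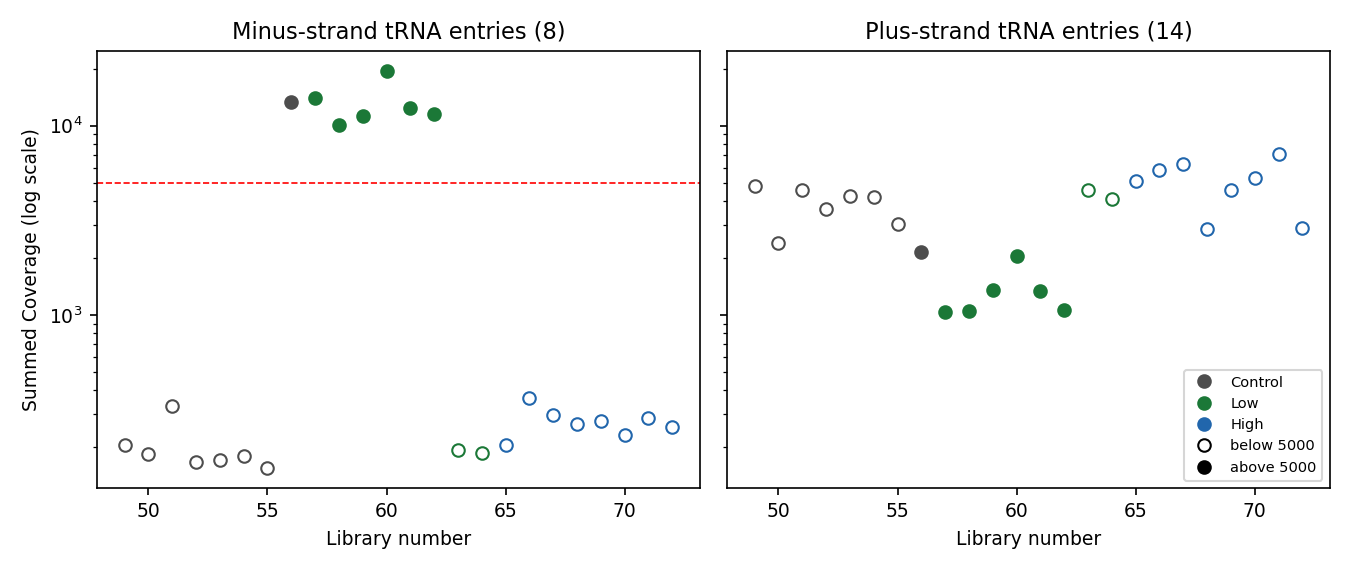
Summed Coverage of the mitochondrial tRNA entries on a log axis, by library number, for the 8 minus-strand entries (left, with the threshold of 5000 as a dashed line) and the 14 plus-strand entries (right). Filled points are the 7 libraries above the threshold: they stand at 10037 or more on the left, where the other 17 reach at most 362, and on the right all 7 lie below the other 17.

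In the account that follows, a value is a gene's Coverage divided by the library's sum over all reference genes, scaled to 1000000, and a difference is taken on log2(value + 1), where low genes show less than their true change. The difference within Control is library 56 minus the mean of 49 to 55, and the difference within Low is the mean of 57 to 62 minus the mean of 63 and 64. With 1 library on one side in Control and 2 on the other in Low, a gene is called set apart when library 56 lies outside the range of 49 to 55 and all 6 Low libraries lie outside that of 63 and 64, on the same side. Both differences are within a dose group, so dose is the same on either side. Over the 15644 reference genes with a mean value of at least 1, library 56 lay above all 7 other Control libraries for 2730 genes (17.5%) and below them for 1269 (8.11%). The 6 Low libraries lay above both others for 661 (4.23%) and below both for 990 (6.33%). Both held in the same direction for 300 genes that were higher in the 7 libraries (1.92%) and 519 that were lower (3.32%), and in opposite directions for 53 (0.339%). The median difference over all 15644 genes was 0.07 within Control and 0.00 within Low. Scaled by the reference sum without mitochondrial genes, 837 genes were higher and 522 lower.

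The High libraries took no part in these calls, but the genes were chosen on the values of the same 7 libraries, so a distance from the High libraries follows in part from that choice and supports nothing. For 102 of the 300 higher genes (34.0%), all 8 High libraries lay below all 7 libraries, against 136 of all 15644 genes (0.869%). For 414 of the 519 lower genes (79.8%), all 8 High libraries lay above all 7, against 550 of all genes (3.52%).

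On the mitochondrial genome, the tRNA entries differed and the mRNA and rRNA entries mostly did not. All 37 mitochondrial entries passed the filter, and of these 13 were set apart higher, 5 lower, 1 in opposite directions and 18 neither. Over all genes, 1.92% were higher and 3.32% lower, but 8 of the 13 are the entries whose sum chose the libraries. The count of higher entries is therefore a description and supports nothing. All 8 minus-strand tRNA entries were higher, with a median difference of 6.26 within Control and 6.17 within Low. The rule required a high sum of the 8, though not a rise at each of them. The size of the difference varied among them. AY172581.7 (ENSRNOG00000029954, MT:5256-5321, positions here and later as the tables give them) was at 583 in library 56 and at 363 to 686 (median 571) in libraries 57 to 62, while it was at 0.746 to 3.13 (median 1.27) in libraries 49 to 55 and at 1.24 and 0.662 in libraries 63 and 64. Its differences, 7.91 and 8.16, were the largest of the 8.

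The entries AY172581.22, AY172581.18, AY172581.10 and AY172581.7 stand one after another on the minus strand between Mt-nd2 and Mt-co1, where mammals carry a cluster of tRNA genes. Their differences were between 6.41 and 7.91 within Control and between 6.60 and 8.16 within Low. The smallest differences of the 8 were at AY172581.21 (4.76 and 4.44), which lies between Mt-nd1 and Mt-nd2, and at AY172581.2 (4.27 and 3.69), next to the control region. The highest level was at AY172581.19 (MT:6865-6933), which overlaps the end of Mt-co1 on the other strand. It was at 2117 in library 56 and 1552 to 2991 in libraries 57 to 62, but at 13.6 to 40.2 in libraries 49 to 55, at 33.5 and 49.6 in libraries 63 and 64, and at 23.6 to 56.1 in the High libraries.

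The plus-strand tRNA entries, which the rule did not use, moved in both directions. Of 14, 5 were lower, 4 higher, 1 opposite and 4 neither. Their sum was 1130 per 1000000 in library 56 against 1384 to 2404 in libraries 49 to 55, and 571 to 731 in libraries 57 to 62 against 2527 and 2490 in libraries 63 and 64. The groups did not overlap in either dose group.

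AY172581.15 (ENSRNOG00000032274, MT:3835-3903), just before Mt-nd2, held most of this loss. It was at 15.7 in library 56 and at 1.91 to 11.1 (median 6.10) in libraries 57 to 62. In libraries 49 to 55 it was at 746 to 1254 (median 1187), in libraries 63 and 64 at 1493 and 1410, and in the High libraries at 660 to 1589. It lies beside AY172581.21, its minus-strand neighbour, which was higher, so the pair differed in opposite directions on opposite strands. AY172581.14, which sits between the large rRNA and Mt-nd1, was at 19.0 in library 56 and 5.59 to 23.1 in libraries 57 to 62, against 324 to 512 in libraries 49 to 55 and 518 and 513 in libraries 63 and 64.

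The entry before the small rRNA (AY172581.13) and the entry between both rRNAs (AY172581.3) were also lower, by differences of -4.78 and -2.64 within Control. AY172581.12, next to Mt-co2, was the fifth, with differences of -0.55 and -1.07. In contrast, AY172581.11 (MT:11665-11735), the last of the tRNA entries before Mt-nd5, was at 195 in library 56 and 91.9 to 161 in libraries 57 to 62, but at 3.37 to 8.05 in libraries 49 to 55 and 5.32 and 8.34 in libraries 63 and 64. AY172581.8, AY172581.16 and AY172581.5 were also higher, with differences within Control of 3.13, 2.59 and 1.90. The plus-strand tRNA entries thus gave a mixed picture. Those on the minus strand were all higher, but their sum chose the libraries, so the contrast between the strands is a description only.

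The mRNAs and rRNAs of the same genome were nearly level, apart from Mt-atp6 within Low (1.27). None of the 12 plus-strand protein genes and neither rRNA was set apart, with median differences of 0.14 and 0.17 for the protein genes and 0.17 and -0.14 for the rRNAs. Mt-nd6 (ENSRNOG00000029042), the only minus-strand protein gene, was higher, at 7406 in library 56 against 4670 to 7013 in libraries 49 to 55, and at 6057 to 9528 in libraries 57 to 62 against 5058 and 5497 in libraries 63 and 64. Its differences were 0.45 and 0.60, far from those of its tRNA neighbour AY172581.20 (6.05 and 5.60). The mitochondrial genome as a whole took 27.7% of reference coverage in library 56 and 22.1 to 30.0% in libraries 49 to 55, so the total overlapped.

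**Figure D2:**
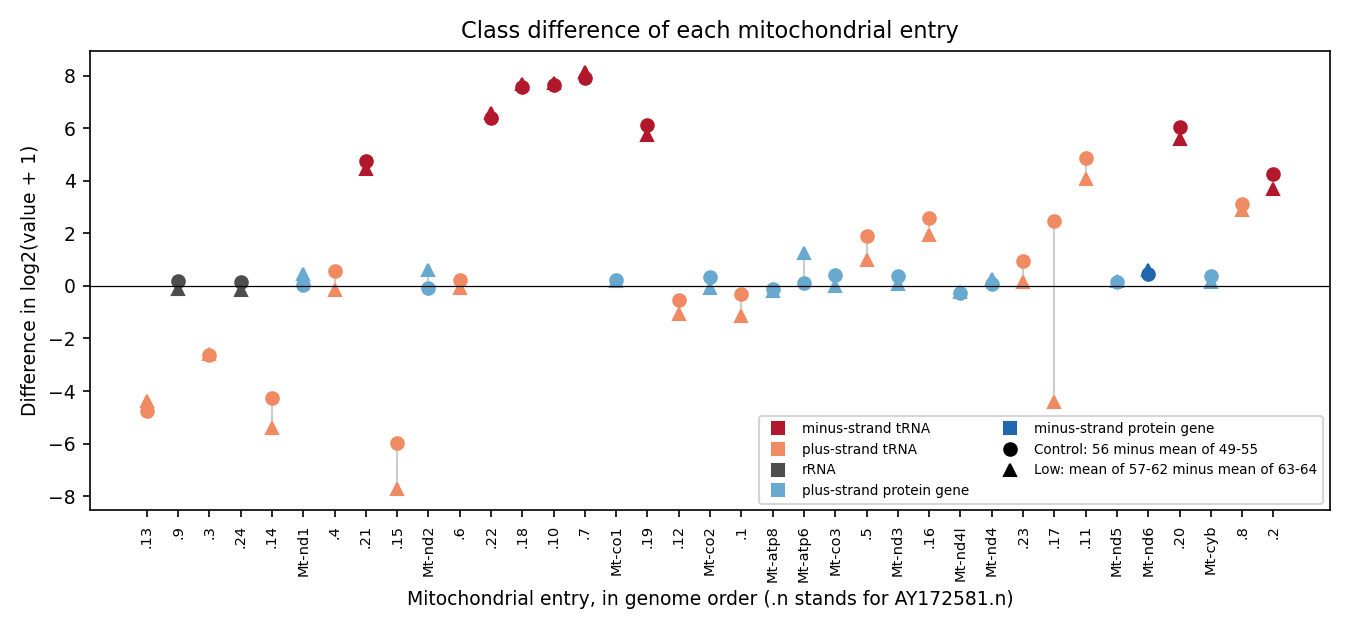
Difference in log2(value + 1) for the 37 mitochondrial entries in genome order, within Control (circles) and within Low (triangles), coloured by kind. The 8 minus-strand tRNA entries stand between 3.69 and 8.16, the protein genes and rRNAs lie between -0.28 and 0.61 except Mt-atp6 within Low (1.27), and the plus-strand tRNA entries fall on both sides.

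Nuclear genes for the proteins that cut, modify and charge mitochondrial tRNAs showed no comparable shift, beside 1.92% higher and 3.32% lower among all genes. Among 24 measured genes for mitochondrial RNA processing and expression, 1 was set apart, Trnt1, which adds the CCA end to tRNAs (higher). Among 14 measured genes for mitochondrial tRNA modification and charging, 1 was, Yars2, the mitochondrial tyrosyl-tRNA synthetase (higher). The median differences of these lists were 0.03 and 0.01, and 0.04 and 0.01, close to the 0.07 and 0.00 of all genes. The 17 nuclear genes of the respiratory chain held no gene set apart, with medians of -0.04 and 0.08.

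Away from the mitochondrion, the share of genes set apart was highest among very short ones. Of 668 tested nuclear genes that span at most 200 bases, 345 (51.6%) were lower and 41 (6.14%) higher. Of 13537 genes that span over 2000 bases, 71 (0.524%) were lower and 214 (1.58%) higher. By share, both losses and gains were thus more frequent at short genes. By number, 214 of the 287 nuclear gains were at genes over 2000 bases, which make up most of the 15607 nuclear genes tested. Among short genes, the direction went with the position relative to other genes. Among genes of at most 200 bases, 177 of 335 (52.8%) that lie inside a gene on the same strand were lower and 4 higher, and 148 of 271 (54.6%) that lie inside no other gene were lower and 15 higher. Among the 53 that lie inside a gene on the opposite strand, 21 (39.6%) were higher and 18 (34.0%) lower. A gene with a mean below 1 is not in these counts, and a gene that is at 0 in 1 class passes only through the other. The filter takes the mean over 17 libraries below the threshold and 7 above it. A gene at 0 in the 7 thus passes at a lower level than a gene at 0 in the 17. This tilts these counts, and those of the small RNA genes below, towards losses.

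**Figure D3:**
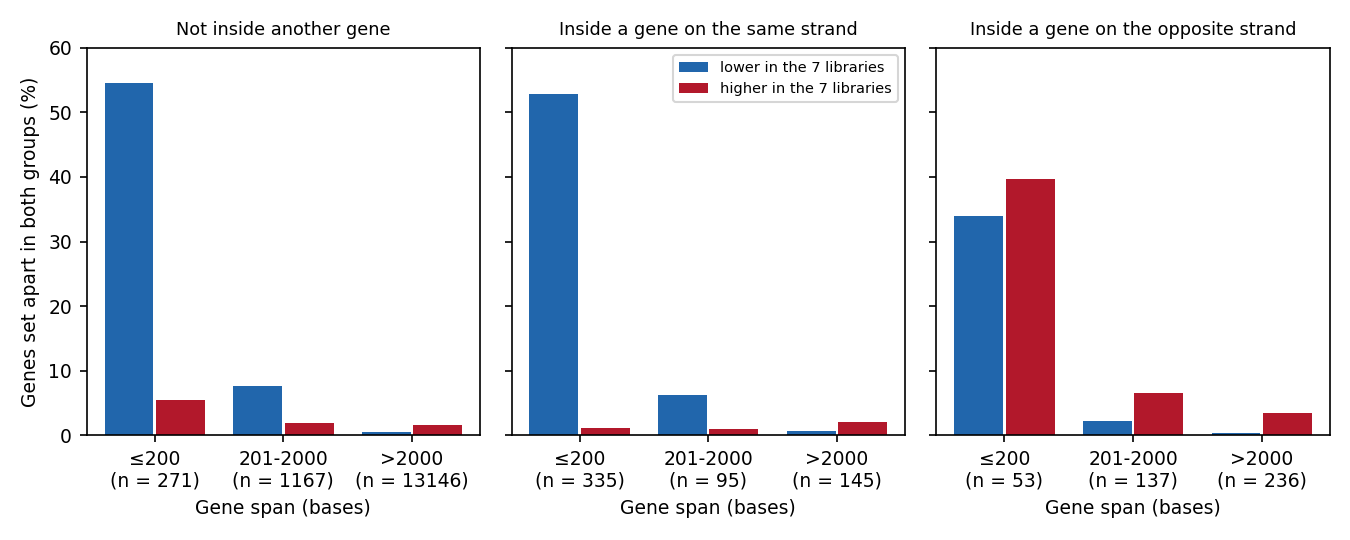
Share of tested genes (in percent) that were set apart within both Control and Low, by gene span and by position relative to other reference genes; blue bars are genes lower in the 7 libraries and red bars genes higher. Genes up to 200 bases hold the tall bars, and only inside opposite-strand genes does the higher bar (39.6%) exceed the lower one (34.0%) in that class of span. The filter tilts these shares towards losses.

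Without any filter, the number of short genes with any coverage differed in opposite directions for the same positions. Of the 1161 genes of at most 200 bases inside a gene on the same strand, 260 were above 0 in library 56 and 601 to 697 in libraries 49 to 55, while 223 to 291 were above 0 in libraries 57 to 62 and 637 and 598 in libraries 63 and 64. Of the 712 inside a gene on the opposite strand, 240 were above 0 in library 56 against 73 to 91 in libraries 49 to 55, and 181 to 329 in libraries 57 to 62 against 83 and 74 in libraries 63 and 64. The High libraries, with 578 to 685 and 71 to 101, lay with libraries 49 to 55, 63 and 64. Summed coverage behaved otherwise. Short genes inside an opposite-strand gene summed to 474 per 1000000 in library 56 against 25589 to 43773 in libraries 49 to 55, and to 313 to 493 in libraries 57 to 62 against 28784 to 34446 in libraries 63 and 64, a sum in which the few 57-base entries described below weigh most. Over genes of any span inside an opposite-strand gene, the log2 difference of the sum was -1.32 within Control and -1.39 within Low. Short genes inside a same-strand gene summed to 8616 in library 56, within the 8073 to 9742 of libraries 49 to 55, and to 1655 to 1892 in libraries 57 to 62 against 3717 to 3885 in libraries 63 and 64. The gain in number on the opposite strand went with the level of the surrounding gene. Where that gene averaged below 1 in the 17 libraries, the median library of the 7 held 14 of 151 short genes above 0 and the median library of the 17 held 16. Where it averaged 1 to 10, they held 51 and 18 of 180. Where it averaged 10 to 50, they held 113 and 28 of 273, and above 50, 57 and 18 of 108. With no filter, 0, 6, 31 and 19 of these genes were set apart higher, in the same order. Set apart lower were 2, 8, 2 and 7.

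The genes around the short ones were nearly level. The 177 short genes that were lower inside a same-strand gene had median differences of -1.91 and -2.04, and the 131 tested genes that hold them had medians of 0.09 and 0.03, with 5 lower and 1 higher. The 21 that were higher inside an opposite-strand gene had medians of 2.68 and 2.32, and the 21 genes that hold them -0.01 and -0.03, with 0 set apart.

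Mir186, a microRNA gene inside Zranb2 (a splicing factor gene) on the same strand, is an example of the loss. Its value was 0 in library 56 and in all of libraries 57 to 62, 11.6 to 34.1 (median 26.3) in libraries 49 to 55, 26.1 and 21.8 in libraries 63 and 64, and 18.0 to 26.7 in the High libraries. Zranb2 itself was at 169 in library 56 and at 127 to 169 in libraries 49 to 55, and at 143 to 161 in libraries 57 to 62 against 138 and 154. The host was level within both dose groups while the microRNA gene inside it was listed at 0.

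A U4 entry (ENSRNOG00000061167, 8:23032865-23032984, plus strand) inside the neuronal RNA-binding protein gene Elavl3 (minus strand) is an example of the gain. U4 is a small nuclear RNA of the spliceosome with many near-identical copies, so its reads may be shared between copies. The entry was at 10.7 in library 56 and 8.84 to 19.9 in libraries 57 to 62. It was listed at 0 in libraries 49 to 55, 63 and 64, and at 0 to 0.496 in the High libraries. Elavl3 was at 112 in library 56 and 89.8 to 122 in libraries 49 to 55.

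Of 80 tested microRNA genes, 43 (53.8%) were lower, 5 (6.25%) higher, 1 opposite and 31 neither, close to the 51.6% and 6.14% of all short nuclear genes. The largest loss was at Mir770 (ENSRNOG00000040384, 6:133682957-133683050), a microRNA gene of the imprinted Dlk1-Dio3 region. It was at 1.90 in library 56 and 0 to 2.27 (median 0.999) in libraries 57 to 62, but at 298 to 525 (median 432) in libraries 49 to 55, 502 and 512 in libraries 63 and 64 and 362 to 544 in the High libraries. The highest value in the 7 libraries was far below the lowest in the other 17. From Mir770 to Mir3072, a stretch of that region chosen after its values were seen, 30 of 42 tested entries were lower and 0 higher, with median differences of -2.23 and -2.56, and 41 of the 42 lie on the plus strand.

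Mir568 (11:61996027-61996122), inside Gramd1c on the opposite strand, was at 0 in library 56 and at most 0.903 in libraries 57 to 62. It was at 26.0 to 56.1 in libraries 49 to 55 and at 41.4 and 47.3 in libraries 63 and 64. A position inside an opposite-strand gene thus did not always go with a gain. Gramd1c itself spans 1028867 bases and was at 1.62 to 3.25 in libraries 49 to 55.

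On chromosome 17 of the tables, a single microRNA cluster showed both directions. Mir23b and Mir27b, printed above and chosen here after their values were seen, lie on the plus strand (17:823222-823318 and 17:823461-823557), and Mir3074 lies on the minus strand (17:823940-824056). RefSeq's build gives this stretch in the other orientation, so the strands are swapped in the sequences above.

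Mir23b was listed at 0 in all 7 libraries, and at 1.41 to 11.9 in libraries 49 to 55, 5.99 and 6.28 in libraries 63 and 64 and 3.23 to 8.39 in the High libraries. Mir27b was likewise listed at 0 in all 7, and at 3.08 to 9.63, at 8.23 and 3.84, and at 3.46 to 9.74 in the same order. Mir3074 went the other way. It was at 21.3 in library 56 and 9.22 to 18.9 (median 15.0) in libraries 57 to 62, at most 0.363 in libraries 49 to 55, at 0 in libraries 63 and 64, and at most 0.131 in the High libraries. No library of the 24 had values above 1 on both strands of this cluster.

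Of the 5 microRNA genes that were higher, Mir3074, Mir3597-2 and Mir3556b overlap another RefSeq microRNA on the other strand, out of 4 that RefSeq's table matched by symbol. Of the 38 matched among those lower, 2 do. Over all 73 matched it was 6. Mir3597-2 (2:11884658-11884775) was at 14.9 in library 56 and 5.69 to 16.6 in libraries 57 to 62, at most 0.329 in libraries 49 to 55, at 0 in libraries 63 and 64 and at most 0.644 in the High libraries. Mir3556b was at 7.73 and at 4.44 to 11.7 in the 7 libraries, against 0.404 to 1.64 in libraries 49 to 55, with a second copy, Mir3556b-2, that has the same values and cannot be told apart from it.

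**Figure D4:**
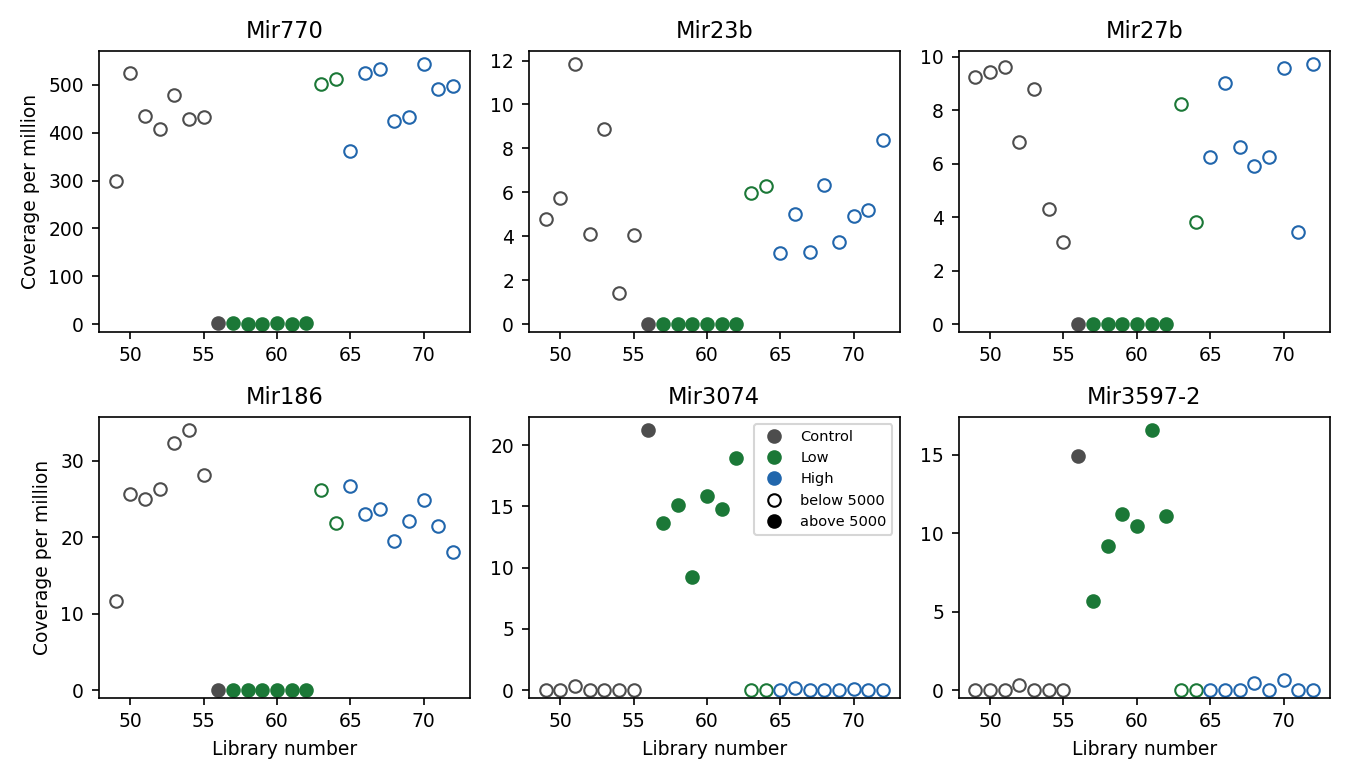
Coverage of 6 microRNA genes, per 1000000 of reference coverage, by library number, on a linear axis for each gene; filled points are the 7 libraries above the threshold. Mir770, Mir23b, Mir27b and Mir186 sit at or near 0 in libraries 56 to 62 and above 0 in every other library, and Mir3074 and Mir3597-2 show the reverse.

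C/D snoRNA genes, which guide 2′-O-methylation of rRNA and mostly lie in introns, were lower in 40 of 51 tested (78.4%, beside 51.6% of all short nuclear genes) and higher in 0. H/ACA snoRNA genes, which guide pseudouridylation, were lower in 6 of 16 (37.5%) and higher in 1. SNORD29 (1:224923099-224923162) was listed at 0 in all 7 libraries and at 20.5 to 64.2 in libraries 49 to 55, 21.3 and 26.3 in libraries 63 and 64, and a median of 34.2 in the High libraries. SNORD24 was at 0 in library 56 and at most 2.01 in libraries 57 to 62, against 17.5 to 42.6 in libraries 49 to 55 and 31.7 and 35.8 in libraries 63 and 64. Copies of U6, the catalytic small nuclear RNA, were lower in 15 of 30 (50.0%) and higher in 7 (23.3%): of 15 inside a same-strand gene 10 were lower, and of 8 inside an opposite-strand gene 6 were higher. Copies of 7SK were mostly not set apart (2 higher and 2 lower of 28).

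The largest losses of all were at 6 entries of 57 bases on chromosomes 6 and 14, among them AABR07063462.1, AABR07015067.2, AABR07015081.1, AABR07063425.1 and AABR07015056.1. Their values lay between 3462 and 9871 in the 17 libraries and between 0.353 and 4.31 in the 7. The entries have the same length and closely similar values, and reads shared between them could not be separated, so they are uncertain as 6 genes. Of the 6, 5 lie inside an opposite-strand entry, and the one around AABR07015067.2, AABR07015067.1 (14:46588411-46593828), was among the largest gains, at 734 in library 56 and 164 to 892 in libraries 57 to 62 against 6.45 to 83.2 in libraries 49 to 55, 7.96 and 7.58 in libraries 63 and 64, and 5.85 to 18.5 in the High libraries. Here again a loss and a gain faced each other across the strands.

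The largest gain outside the mitochondrion was at a U2 entry (ENSRNOG00000054047, 3:124939267-124939351, minus strand), a copy of the small nuclear RNA that pairs with the branch point. It was at 168 in library 56 and 147 to 223 in libraries 57 to 62, at most 1.40 in libraries 49 to 55, and at 0.340 and 0 in libraries 63 and 64. An unnamed entry in Ppip5k1 (ENSRNOG00000041411), AABR07070131.1 and AC099089.1 followed, with differences within Control of 5.02, 4.30 and 4.29 and within Low of 4.47, 5.05 and 4.54.

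Few protein-coding genes with a known symbol differed by much. Fam166a (ENSRNOG00000010019, 3:2438089-2441706) was at 10.2 in library 56 and 7.62 to 13.6 in libraries 57 to 62, against 0.406 to 1.14 in libraries 49 to 55, 0 and 0.129 in libraries 63 and 64, and 0.328 to 1.08 in the High libraries. The next were chosen after their values were seen. Cstf3, a subunit of the complex that directs cleavage of mRNA 3′ ends, was at 40.4 in library 56 against 11.5 to 16.1 in libraries 49 to 55, and at 32.3 to 39.8 in libraries 57 to 62 against 12.2 and 12.3. Ccdc152 was at 10.3 against 0.990 to 2.41, and at 8.51 or more in libraries 57 to 62 against 1.31 and 1.14. All 3 were separated with no overlap, and the High libraries lay with the low side.

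Losses were also seen, at genes likewise chosen after their values were seen. Igip, whose entry spans only 162 bases, was at 7.34 in library 56 against 70.0 to 122 in libraries 49 to 55, and at 2.03 to 8.13 in libraries 57 to 62 against 76.2 and 101. Among genes over 2000 bases, Smim10l1 (differences of -2.16 and -3.34), Spag5 (-1.11 and -1.14), which has a role at the mitotic spindle, and Catsperz (-1.08 and -1.21), a sperm calcium channel subunit gene, were lower. Among genes over 2000 bases inside no other gene, both differences reached 1 on the log2 scale for 23 of 13146, 13 higher and 10 lower. Of the 203 such genes that were higher, 48 (23.6%) overlap a gene on the other strand, against 1789 of all 13146 (13.6%).

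Assembled loci are entries that StringTie listed under its own identifiers, and they can overlap reference genes. They are given only in the Control and High tables, so they describe library 56 alone among the 7. Library 56 held 159573 of them, against 46334 to 66427 in libraries 49 to 55 and 50235 to 64010 in the High libraries. Those that overlap a reference gene on the same strand numbered 21223, within the 20508 to 25959 of libraries 49 to 55. Those that overlap reference genes only on the other strand numbered 95732 against 4393 to 7333, or 60.0% of its loci against 8.27 to 11.0%, and they carried 29.0% of assembled coverage against 1.97 to 2.33%. The excess was thus on the strand opposite to known genes, and smaller outside them (42618 against 21433 to 36241).

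At the short nuclear genes that were lower, 275 of 345 lay inside an assembled locus on the other strand in library 56, against 12 to 47 in libraries 49 to 55. Inside an assembled locus on their own strand were 237 of them, against 336 to 344. Short nuclear genes that were not set apart also differed, with 111 of 276 inside a locus on the other strand against 28 to 44, and 259 inside one on their own strand against 267 to 274. At the 41 short nuclear genes that were higher, all 41 lay inside a locus on their own strand in library 56, against 14 to 19. On the mitochondrial minus strand, assembled loci summed to a Coverage of 31062 in library 56 against 4891 to 16943 in libraries 49 to 55. Without Mt-nd6 the sum was 18387 in library 56 against 396 to 4891 (median 468) in libraries 49 to 55. The highest of the latter was library 55, where both sums were the same.

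Few markers of cell types were set apart, beside 1.92% higher and 3.32% lower among all genes. The labels' protocol mentions cell lines and the study's methods mention tissue, and neuronal, astrocyte, oligodendrocyte and microglial markers were all expressed. No gene of the lists for excitatory neurons, inhibitory neurons, astrocytes, oligodendrocytes, their precursors, endothelium, mural cells, choroid plexus, striatum, cortical layers or hindbrain was set apart, and neither were immediate early genes (17 tested), non-polyadenylated RNAs (2 tested) or nuclear long non-coding RNAs (1 tested). Of these lists, 2 of 4 endothelial, 1 of 4 choroid plexus and 1 of 3 hindbrain genes passed the filter. All 5 striatal genes had positive differences, with medians of 0.67 within Control and 0.64 within Low, without being set apart. The medians were negative in both groups for excitatory neurons (-0.17 and -0.20) and oligodendrocytes (-0.15 and -0.34). Of the lung and liver markers Sftpc and Alb, 1 passed the filter and it was not set apart. Of 5 microglial markers 1 was, Aif1 (higher), and of 22 entries for cytosolic ribosomal proteins 2 were, Rpl3 and Rpl4 (higher). In bulk tissue, fewer cells of a type and less RNA per cell cannot be told apart.

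Blood was the only list in which every tested gene was set apart, beside 1.92% higher among all genes. All 5 tested genes of the blood list, the haemoglobin genes Hbb, Hba-a1, Hba-a2 and Hba-a3 (the last 3 with near-identical sequence) and the haem synthesis gene Alas2, were higher. Their sum was 1684 in library 56 against 765 to 1154 in libraries 49 to 55, and 791 to 1388 in libraries 57 to 62 against 489 and 463 in libraries 63 and 64. The High libraries spanned 558 to 1771 without any strong tRNA signal. Libraries 57 to 62 had a median of 1050, near the 1023 of libraries 49 to 55. Libraries 63 and 64 lay below every other library of the series, so the call within Low rests on their low values. The part of blood in the other differences was not tested. Depth did not separate the classes: the bases behind a table, taken as the median ratio of Coverage to FPKM, in gigabases, were 5.94 in library 56 and 5.05 to 7.86 in libraries 49 to 55, and 3.34 to 6.42 in libraries 57 to 62 and 3.71 and 3.35 in libraries 63 and 64.

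The 7 libraries are spread unevenly over the doses, 6 in Low, 1 in Control and 0 in High, so the class enters each comparison with Low. In limma with no covariate, 956 of 15644 genes passed an adjusted p of 0.05 between Low and Control (6.11%), 192 higher and 764 lower in Low. With the class as a covariate, 361 passed (2.31%), 14 higher and 347 lower, and 337 genes passed in both fits. Class and Low largely coincide, so part of the fall may come from lower precision. Between Low and High, 1828 passed (11.7%), 829 higher and 999 lower, and with the covariate 354 (2.26%), 31 higher and 323 lower. Between High and Control, which hold 0 and 1 of the 7 libraries, limma passed 0 genes with either fit (0.0%), with 330 and 382 at an unadjusted p under 0.05. The split of the Low against Control calls moved with scaling, to 858 higher and 901 lower without mitochondrial genes in the sum, 56 and 705 without scaling, and 11948 and 445 with FPKM, and that of Low against High to 1550 and 1169, 108 and 1262, and 11909 and 501, with 370 and 1286 by median-of-ratios scaling.

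Genes set apart by class were chosen on the difference that the covariate takes up, so their counts among the dose calls are a description and support nothing. Of the 300 higher genes, 56 passed between Low and Control without the covariate and 7 with it. Of the 519 lower genes, 254 passed without it and 13 with it, and their median difference between Low and Control went from -1.18 to 0.05. The 8 minus-strand tRNA entries had a median difference of 3.87 without the covariate and -0.16 with it. Between High and Control the 519 lower genes had medians of 0.22 and -0.04.

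Of the 431 called genes with a known symbol, 123 still passed with the covariate and 308 did not. A gene may stop passing from lost precision alone, so the 308 are not read as genes explained by class. The 5 largest of those that did not were Mir3064, Mir770, U2, SNORD29 and Mir186. Mir770 fell by 4.87 on the log2 scale between Low and Control (limma, adjusted p = 0.025, 95% interval -7.55 to -2.20), and with the class as covariate the difference was -0.04 (-0.51 to 0.43, adjusted p = 0.96). The U2 entry rose by 4.50 (adjusted p = 0.024 by limma) and with the covariate the difference was -0.02 (-0.48 to 0.43, adjusted p = 0.98). Mir186 fell by 2.96 (adjusted p = 0.021 by limma) and with the covariate stood at -0.04 (adjusted p = 0.95). Mir3064 and SNORD29 kept a difference whose 95% interval excluded 0. Mir3064 fell by 5.01 (limma, adjusted p = 0.0043) and with the covariate by 1.09 (-1.71 to -0.47, adjusted p = 0.057). SNORD29 fell by 3.58 (limma, adjusted p = 0.0080) and with the covariate by 0.51 (-0.98 to -0.03, adjusted p = 0.48).

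The 5 largest that still passed were Mir935, Sec14l4, Metazoa_SRP, Gp1bb and Mir2985. Mir935 was at 118 in library 56 and 90.6 to 124 in libraries 49 to 55, but at 0.274 to 0.529 in libraries 57 to 62, 0.416 and 0.494 in libraries 63 and 64, and 82.9 to 125 in the High libraries. All 8 Low libraries were low here, whichever class they belonged to. Its difference was -6.22 without the covariate and -6.25 with it (limma, adjusted p = 2.6e-23). Sec14l4, a lipid-binding protein gene, was at 0.0652 and 0.0281 in libraries 63 and 64 and had a median of 0.0746 in libraries 57 to 62, but the highest of these reached 99.0, within the range of libraries 49 to 55 (70.3 to 130). Gp1bb, a platelet receptor subunit, was low in all 8 Low libraries, at 97.6 in library 56, 0.576 to 2.93 in libraries 57 to 62, and 0.944 and 0.414 in libraries 63 and 64.

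Mt-atp6, a subunit of ATP synthase, also passed both fits, with differences of -1.27 and -1.80 (limma, adjusted p = 0.0050 and 6.2e-04). It was at 6046 and 7236 in libraries 63 and 64 and at 8585 to 38946 in libraries 57 to 62, against 26722 to 36084 in libraries 49 to 55. Mt-atp6 overlaps Mt-atp8 on the same strand. Mir2985 showed both patterns, at 92.4 in library 56 and 88.2 to 185 in libraries 49 to 55, 53.2 and 38.3 in libraries 63 and 64, and 0.131 to 1.16 in libraries 57 to 62, and its difference moved from -5.36 to -3.23 (limma, adjusted p = 3.2e-06 and 3.4e-05). The Low tables differ from the others in that they list no assembled loci, and dose and this difference between tables cannot be told apart.

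**Figure D5:**
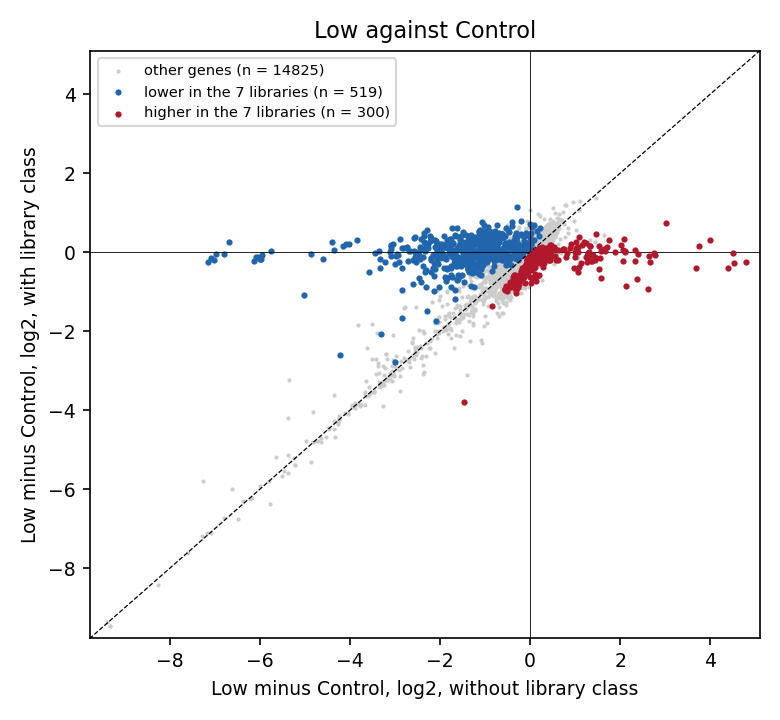
Low minus Control on log2(value + 1) for each of 15644 genes, fitted without library class (horizontal) and with it (vertical), with the line of equality dashed. Most genes lower (blue, n = 519) or clearly higher (red, n = 300) in the 7 libraries lie near 0 on the vertical axis, and most other genes (grey) lie near the dashed line.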

How the data were processed

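Each of the 24 samples has 1 deposited StringTie table with Coverage (a signal, mean reads per base) and FPKM for reference genes and, in Control and High tables, assembled loci. The submitters' notes name FastQC, Trimmomatic, TopHat2 and StringTie with the build mRatBN7.2, and no versions. Positions are given as in the tables, whose chromosome 1 reaches 282724300 and whose contig names are those of an older assembly. No source used here states the StringTie settings.

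Coverage of repeated entries was summed per gene, divided by the sum over all reference genes and scaled to 1000000. The filter required a mean of 1 or more, and log2(value + 1) was used. Dose was tested with limma 3.58.1 in R (trend and robust, all 24 libraries in 1 fit, two-sided, Benjamini-Hochberg), after a check on simulated data. The FPKM column as deposited by the authors served as an alternative. TPM was not used. Scripts ran in R 4.3.3 and Python 3.11.15 (pandas 2.3.3).

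The 7 libraries, gene lists and class comparisons were chosen with earlier results of these data known. Named genes are all mitochondrial entries by kind, the 5 largest set apart each way by the smaller of both differences (with and without clone-like symbols), and the 5 largest Low against Control calls that pass or fail with the covariate. Genes of the lists are named where a list is described. Other named genes were chosen after their values were seen, also where the text does not say so. Among these are Mir3556b, Igip, Smim10l1, Spag5 and Catsperz. The files give no read counts, so counting error is unknown. Nothing pairs libraries across groups.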

Additional observations from a re-analysis of the deposited data

Results flagged for a closer look

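Library 56 stood apart from the other 7 Control libraries by Dixon's test in 3 of the quantities described: 240 short opposite-strand nested genes above 0, 260 short same-strand nested genes above 0, and 159573 assembled loci. In addition, the mitochondrial share of coverage was low in High library 70, at 22.5%. The test was run on 23 groups of 8 and marked these 4, and chance marks about 1 group in 20. Library 56 had been chosen for its tRNA coverage, which was not put to this test, so the number of marks is a description only. In library 56, assembled loci that overlap reference genes only on the other strand made up 60.0% of all its loci. These loci are listed apart from the reference entries on which the comparisons rest.

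A set of 53 of the 15644 genes (0.339%) was set apart in opposite directions within Control and within Low, a difference that was not tested. This is fewer than the 300 and 519 set apart in the same direction. Among them was the plus-strand mitochondrial entry AY172581.17 (MT:11606-11665), with a difference of 2.47 within Control and -4.43 within Low. It was at 214 in library 56 against 15.1 to 73.8 in libraries 49 to 55, and at 0.541 to 0.964 in libraries 57 to 62 against 28.5 and 50.7 in libraries 63 and 64. It shares its last base with the start of AY172581.11, which was higher in both groups.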

How the results depend on the processing

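The number of genes set apart, 819, was 425 with a minimum mean of 5 and 1359 when scaled by the reference sum without mitochondrial genes. Without 1 library at a time it was 829 to 1245, the highest without library 64, which leaves library 63 alone on its side. Under this definition, leaving out a library other than 56 can only add genes, so this range does not test the count. No value exists without library 56. The log2 difference of the minus-strand tRNA share within Control, 6.15, was 3.83 with FPKM, where AY172581.2 stood at 132 to 183 in libraries 49 to 55 and 174 in library 56. Without 1 library at a time it was 6.12 to 6.20 within Control and 5.80 to 5.91 within Low. That of opposite-strand nested genes, where the 57-base entries weigh most, was -1.36 to -1.26 within Control and -1.46 to -1.32 within Low.

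Between Low and Control, the 956 calls became 361 with the class as covariate, 327 in the 17 libraries below the threshold, 213 in the 7 above it (6 Low and 1 Control, which is assumed to vary like Low), 556 with a minimum mean of 5, 1759 with the sum without mitochondrial genes (858 higher, 901 lower) and 12393 with FPKM (11948 higher). Between Low and High, the 1828 became 354, 341 in the 17 libraries, 1192 with a minimum mean of 5 and 12410 with FPKM. The cause of the FPKM counts was not tested. Their median differences were 0.53 and 0.52, against 0.06 and 0.09 with scaled Coverage. Without scaling 56 were higher and 705 lower between Low and Control, and 108 and 1262 between Low and High. By median-of-ratios they were 154 and 931, and 370 and 1286. Without 1 library at a time the counts were 675 to 1229 and 1272 to 2479, and 0 to 0 between High and Control. No paired analysis was possible because the groups share no replicate numbers. With no read counts, depth limits are unknown, and with 1 Control library above the threshold and 2 Low libraries below it, class differences rest on few libraries.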
